A study of Mus musculus with 22 samples.

Results

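The regions described here carried H3K4me3 and H3K27me3 peaks in every cell type of the series. Peaks of the 5 H3K4me3 lists were joined wherever they shared at least 1 bp, and the set was chosen by peak presence alone. An autosomal joined region was kept when it overlapped a peak of all 5 H3K4me3 lists and of all 5 H3K27me3 lists. This left 719 regions of 16571 autosomal joined H3K4me3 regions (17229 with the sex chromosomes). The series mapped both marks by chromatin immunoprecipitation and sequencing in purified cells of the developing neocortex of C57BL/6JOlaHsd mice. Proliferative (aRG-P) and neurogenic (aRG-N) apical radial glia, basal radial glia (bRG) and neurons (N) were taken at embryonic day E14.5, and neuroepithelial cells (NEC) at E9.5. Each of the 10 pairs of cell type and mark had 2 samples, which the labels call technical replicates for aRG-N H3K27me3. All animals were of this strain, and the labels name no transgene, mutation or treatment. The peak names say that each list was called on combined samples, so no value has a spread between samples, no difference between cell types could be tested, and the read depth is unknown. The names of the H3K27me3 peaks also say that the N list was made from extended reads and that a set was left out of the aRG-P list.

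H3K4me3 is a methyl mark of promoters that are active or ready to be used, deposited by Trithorax-group complexes. H3K27me3 is deposited by Polycomb repressive complex 2 and accompanies silencing, often over the promoters of developmental regulators. Promoters with both marks are called bivalent and were first described in embryonic stem cells, where many resolve to 1 mark as cells differentiate. In the lineage sampled here neuroepithelial cells give rise to apical radial glia, which produce basal progenitors and neurons. Overlapping peaks of separate lists come from many cells, and whether a single chromatin fibre held both marks was not measured, so the word bivalent is not used for the regions. The track names of the lists refer to transcripts, but the lists name no genes. No annotation of the build of the lists, mm9, was used, so each region is given by its position, 1-based.

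Only a small part of the regions with constant H3K4me3 also had constant H3K27me3. The 719 regions were 4.34% of all autosomal H3K4me3 regions and 6.34% of the 11345 with H3K4me3 in all 5 lists (exact 95% binomial interval 5.90 to 6.80%, counting error only). Of the other regions with H3K4me3 in all 5 lists, 1995 had H3K27me3 in 1 to 4 lists and 8631 in none. Among the 2053 autosomal H3K4me3 regions with H3K27me3 in all 5 lists, the 719 were 35.0%, and the other 1334 had H3K4me3 in 1 to 4 lists. All these shares follow from the rule that chose the regions and are given as a description. Of the 11345 regions, the share with H3K27me3 was 20.6% for NEC, 9.41% for aRG-P, 12.9% for aRG-N, 9.17% for bRG and 13.5% for N, so the bRG and aRG-P lists bounded the number most closely.

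**Figure D1:**
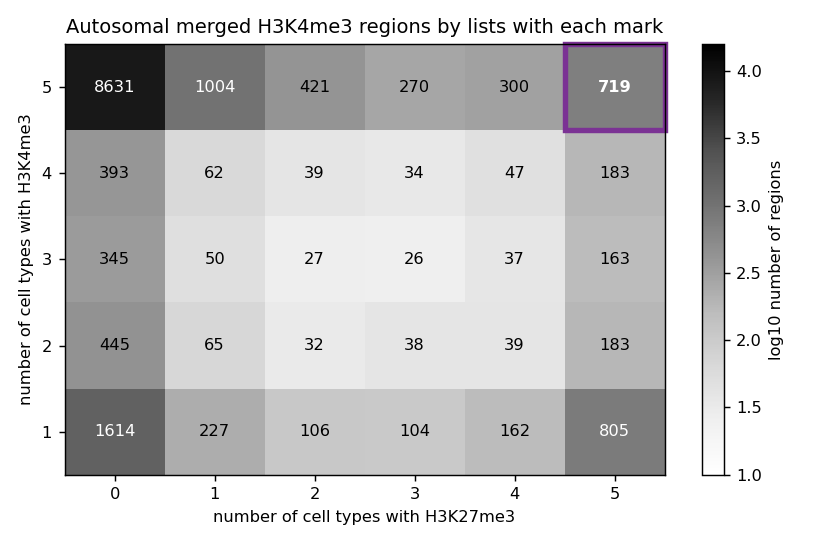
Number of autosomal joined H3K4me3 regions by the number of cell types with an H3K4me3 peak (vertical) and with an H3K27me3 peak (horizontal), shaded on a log10 scale. The outlined cell holds the 719 regions, and the neighbouring cell of H3K4me3 in all 5 and H3K27me3 in 4 holds 300.

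Regions close to the rule lacked mostly H3K27me3 for bRG or aRG-P, or H3K4me3 for N or bRG. Of 300 regions with H3K4me3 in all 5 lists and H3K27me3 in 4, the missing list was bRG in 112, aRG-P in 80, NEC in 64, N in 25 and aRG-N in 19. In 89 of the 300 a peak of the missing list lay within 1000 bp. Of 183 regions with H3K27me3 in all 5 lists and H3K4me3 in 4, N was missing in 67, bRG in 63, aRG-P in 31, aRG-N in 19 and NEC in 3. Among regions with only 1 of the marks constant, the most frequent pattern was the other mark in NEC alone. It accounted for 802 of the 1995 regions with constant H3K4me3 and for 772 of the 1334 with constant H3K27me3. The lists differed in size. Autosomal H3K27me3 peaks numbered 5798 for NEC, 4634 for aRG-P, 6165 for aRG-N, 3387 for bRG and 5448 for N. Autosomal H3K4me3 peaks numbered 17196 for NEC, 15475 for aRG-P, 14278 for aRG-N, 14596 for bRG and 15247 for N. The part of list size, or of how the N and aRG-P H3K27me3 lists were made, in these counts was not tested. Just inside the rule stood a region on chromosome 2 (60718092 to 60719800) that NEC H3K27me3 met over 3 bp, one on chromosome 13 (76192978 to 76194364) met over 5 bp for aRG-P, and one on chromosome 6 (90412060 to 90413827) met over 10 bp for bRG. Just outside stood a region on chromosome 5 (137040894 to 137044408) that an aRG-P peak abutted with a gap of 0 bp, one on chromosome 17 (46434259 to 46435666) with a gap of 3 bp to aRG-P, and one on chromosome 10 (18564624 to 18565299) with a gap of 4 bp to bRG.

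The regions were about as long as other regions with constant H3K4me3, and 18 of them were counted as sharing an H3K27me3 domain. Their median length was 1398 bp (quartiles 1077 and 1772 bp), against 1449 bp for the 8631 regions without H3K27me3. The median distance to the nearest other region of the set was 822 kb. Of the 719, 80 (11.1%) had another within 100 kb and 18 within 10 kb. No spacing was computed for other regions, so these values do not show whether the set is scattered or grouped. When H3K27me3 peaks of the 5 lists were joined, 18 regions (2.50%) shared a joined H3K27me3 domain with another region of the set. These were 9 domains with 2 regions each, so no domain with many such regions was counted. The 2 regions that met 2 or more joined domains were left out of this count. The share was not computed for other regions, so it does not show whether sharing is rare in the set. The longest of the 9, of 32.2 kb on chromosome 2 (71360431 to 71392647), held regions at 71367014 to 71367703 and 71383695 to 71384997. The next longest was a domain of 17.3 kb on chromosome 13 (113774207 to 113791520). A domain on chromosome 2 (10286427 to 10299527) had 13.1 kb, one on chromosome 14 (58686591 to 58698894) had 12.3 kb and one on chromosome 7 (105979031 to 105991132) had 12.1 kb.

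Sharing a region did not mean sharing bases. A base under a peak of all 10 lists existed in 453 of the 719 regions (63.0%, interval 59.4 to 66.5%), and there the common stretch had a median of 308 bp. The other regions met the rule with peaks that lay on different bases in some lists. H3K4me3 alone had a common base of all 5 lists in 691 regions and H3K27me3 alone in 686. The H3K4me3 peaks lay wholly inside H3K27me3 in 533 regions (74.1%) for NEC, 439 (61.1%) for aRG-P, 550 (76.5%) for aRG-N, 404 (56.2%) for bRG and 569 (79.1%) for N. The marks did not touch in 1 region in NEC, 93 for aRG-P, 12 for aRG-N, 82 for bRG and 12 for N. The lists with most regions of this kind, aRG-P and bRG, were also those with the shortest H3K27me3 in the set. The part of peak length, or of the set left out of the aRG-P H3K27me3 list, in this was not tested.

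**Figure D2:**
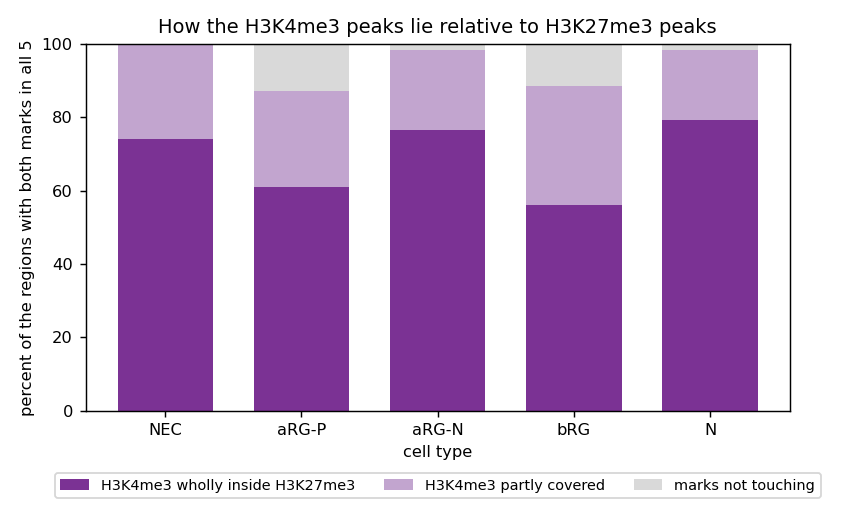
Percent of the 719 regions in each cell type in which the H3K4me3 peaks lay wholly inside H3K27me3 peaks, were partly covered, or did not touch them. Whole inclusion was between 56.2% for bRG and 79.1% for N.

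Taken over the 5 cell types, 289 regions (40.2%, interval 36.6 to 43.9%) had H3K4me3 wholly inside H3K27me3 in every list, and 62 in none. In 154 regions (21.4%) the marks were apart in at least 1 list, and 276 lay between these kinds. The 289 enclosed regions had shorter H3K4me3 and longer H3K27me3 than the 154. Median H3K27me3 length, the summed length of the peaks that met a region, was 4779 against 3284 bp for NEC, 4543 against 1752 bp for aRG-P, 5569 against 3287 bp for aRG-N, 3844 against 1554 bp for bRG and 5341 against 3368 bp for N. Median H3K4me3 length was 1164 against 1381 bp for NEC, 603 against 717 bp for aRG-P, 791 against 934 bp for aRG-N, 605 against 801 bp for bRG and 684 against 882 bp for N. A short peak fits inside a long one more easily, so these lengths partly follow from how the kinds were defined.

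H3K27me3 ran past both ends of the region in most cases in every list but bRG. It did so in 539 regions (75.0%) for NEC, 405 (56.3%) for aRG-P, 541 (75.2%) for aRG-N, 349 (48.5%) for bRG and 557 (77.5%) for N. Among regions with constant H3K4me3 and H3K27me3 in only some lists, counted where the list had it, the shares were 39.9% for NEC, 16.6% for aRG-P, 29.3% for aRG-N, 9.97% for bRG and 31.3% for N. Those regions more often carried H3K27me3 past 1 end, with shares of 50.6% for NEC to 67.9% for aRG-P, against 21.7% for N to 46.2% for bRG in the 719. The summit of the strongest H3K4me3 peak lay under H3K27me3 in 83.3% of the 719 regions for NEC, 69.1% for aRG-P, 84.8% for aRG-N, 68.6% for bRG and 85.0% for N. For the regions with H3K27me3 in some lists these shares were 56.1% for NEC, 35.0% for aRG-P, 46.9% for aRG-N, 45.5% for bRG and 53.1% for N. Among regions with constant H3K27me3 and H3K4me3 in some lists, counted where the list had H3K4me3, both shares were higher than in the 719. H3K27me3 ran past both ends in 91.2% for NEC, 78.5% for aRG-P, 88.4% for aRG-N, 73.0% for bRG and 90.3% for N. The summit lay under it in 96.3%, 93.1%, 95.6%, 91.4% and 95.5%, in the same order. The rule sorted regions by the number of lists with an H3K27me3 peak, so these shares are a description only. Where H3K27me3 was in some lists, its median length was 2185 bp for NEC and 1143 bp for bRG, against 4029 and 2503 bp in the 719. The part of this length in the shares was not tested. Regions are not replicates, and none of these differences was tested.

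H3K4me3 at the 719 regions was weak among the regions with constant H3K4me3, and less so among all peaks. Fold enrichment, a ratio to background from the authors' peak caller, was taken at the strongest peak of a region. Its median percentile among all peaks of a list was 44.9 for NEC, 34.4 for aRG-P, 29.9 for aRG-N, 27.4 for bRG and 34.4 for N. For a second percentile, chosen after values were seen, it was ranked over the 11345 regions with H3K4me3 in all lists, so that every list ranked the same regions. On that ranking the median percentile of the 719 was 18.8 for NEC, 17.6 for aRG-P, 13.9 for aRG-N, 13.6 for bRG and 18.5 for N. It was 28.1, 37.9, 31.2, 33.1 and 39.1, in the same order of cell types, for regions with H3K27me3 in some lists, and 59.2, 55.8, 59.0, 59.0 and 55.5 for regions without it. The median fold enrichment of the 719 was 16.7 for NEC, 7.28 for aRG-P, 8.25 for aRG-N, 6.22 for bRG and 6.89 for N, and the values do not compare cell types. When the 11345 regions were put in 5 equal groups by NEC fold enrichment, the 719 made up 17.4% of the lowest group, then 10.1%, 2.91%, 0.881% and 0.397% of the highest. The regions with H3K27me3 in all lists and H3K4me3 in some were weaker again where H3K4me3 was called, with median fold enrichments of 7.88 for NEC and between 4.42 for bRG and 5.14 for aRG-P at E14.5.

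**Figure D3:**
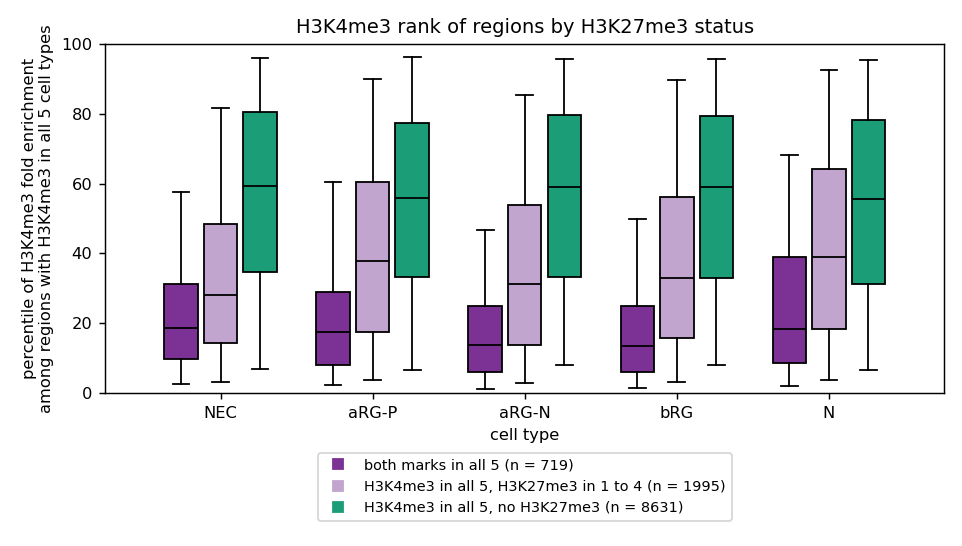
Percentile of H3K4me3 fold enrichment among the 11345 regions with H3K4me3 in all 5 cell types, by cell type and by H3K27me3 status (boxes, quartiles with the median; whiskers, 5th to 95th percentile). The medians of the 719 regions lie between 13.6 and 18.8, and those of regions without H3K27me3 between 55.5 and 59.2.

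The position of H3K4me3 within a region varied more over cell types than in regions without H3K27me3. The summits of the strongest peaks of the 5 lists spanned a median of 333 bp (quartiles 187 and 505 bp) in the 719 regions, 314 bp in regions with H3K27me3 in some lists and 204 bp in regions without it. H3K4me3 was weaker in the 719 than in regions without H3K27me3, and the spread was not compared at equal enrichment. The part of enrichment in the spread was not tested. H3K4me3 was called as 2 or more peaks within a region in 8.48% of the 719 for NEC, 22.7% for aRG-P, 13.2% for aRG-N, 15.6% for bRG and 15.4% for N. In regions without H3K27me3 the shares were 10.6% for NEC, 23.3% for aRG-P, 7.64% for aRG-N, 17.1% for bRG and 20.8% for N. Breaks in the peaks were thus not more frequent in the 719 in 4 of the 5 lists, aRG-N being the exception.

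H3K4me3 was longer in NEC than in the E14.5 lists in most regions, and the gap was wider in the 719 regions. Their median H3K4me3 length was 699 bp for aRG-P, 881 bp for aRG-N, 750 bp for bRG and 799 bp for N at E14.5, against 1308 bp for NEC at E9.5. In regions without H3K27me3 it was 871 bp for aRG-P, 1126 bp for aRG-N, 981 bp for bRG and 967 bp for N, against 1367 bp for NEC. The ratio of the median E14.5 length to the NEC length within a region had a median of 0.614 in the 719 (quartiles 0.470 and 0.738), 0.775 in regions with H3K27me3 in some lists and 0.734 in regions without it. All 4 E14.5 lists were shorter than NEC in 606 of the 719 regions (84.3%), 1220 of 1995 (61.2%) and 6907 of 8631 (80.0%). The 719 also had the lowest ratio within each group of NEC enrichment. In the lowest of the 5 groups of NEC fold enrichment the median ratio was 0.618 in 395 of the 719 regions, against 0.749 in 1174 regions without H3K27me3. In the next 2 groups it was 0.607 against 0.722 and 0.627 against 0.736. Peak length depends on the signal and depth behind a list, and this ratio of lengths from different lists cannot be read as an amount of mark. The differences in the ratio between the kinds of region were not tested.

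**Figure D4:**
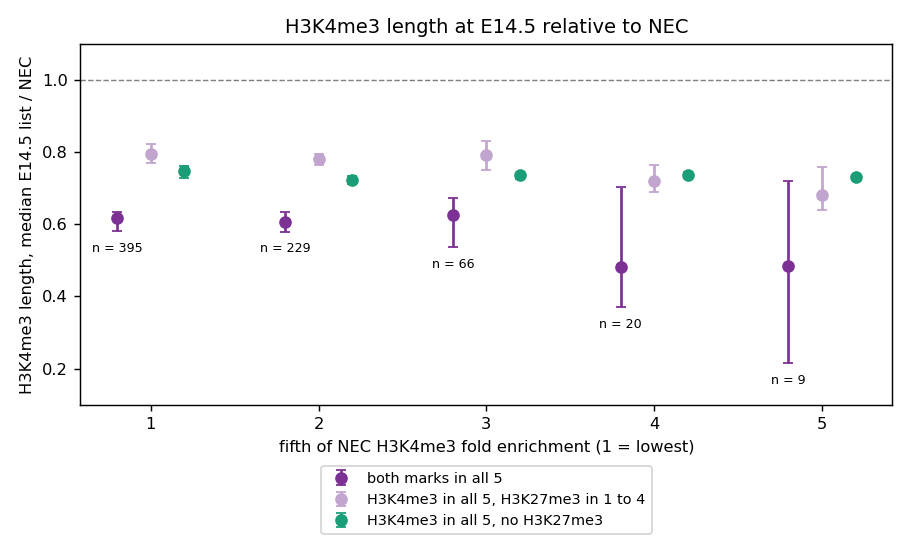
Median ratio of H3K4me3 length (median of the 4 E14.5 lists over NEC) in 5 equal groups of NEC fold enrichment, by H3K27me3 status, with order-statistic 95% intervals of the median. The 719 regions lie lowest in every group, from 0.627 down to 0.481, with 20 and 9 regions in the 2 highest groups.

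H3K27me3 at the 719 regions scored above the middle of each list in the median. The score is the first value column of the deposited lists, and its unit could not be settled. The median percentile of the best peak was 85.0 for NEC, 69.6 for aRG-P, 80.5 for aRG-N, 59.8 for bRG and 76.8 for N. It was ranked over all peaks of a list, sex chromosomes included. These were 9460 for NEC, 5075 for aRG-P, 6830 for aRG-N, 3476 for bRG and 5734 for N, so the percentiles do not compare cell types. The regions were chosen for an H3K27me3 peak in every list, so the percentiles are a description only. Regions with constant H3K27me3 and H3K4me3 in some lists stood higher, at 91.4 for NEC, 85.6 for aRG-P, 90.6 for aRG-N, 79.2 for bRG and 88.0 for N. The median H3K27me3 length was 4029 bp for NEC, 3068 bp for aRG-P, 4488 bp for aRG-N, 2503 bp for bRG and 4086 bp for N, against 5277, 5184, 6365, 4211 and 6249 bp, in the same order, where H3K4me3 was present in some lists only. The median ratio between the ages was closer to 1 for H3K27me3 length than for H3K4me3 length. For H3K27me3 it was 0.901 (quartiles 0.672 and 1.16). H3K27me3 was longest in aRG-N in 266 regions, NEC in 214, N in 204, aRG-P in 28 and bRG in 7, and shortest in bRG in 362. The peak names say that the N list was made from extended reads and that a set was left out of the aRG-P list, which touches these lengths. Their part was not tested.

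Over the 719 regions the E14.5 lists ranked H3K27me3 length more alike than NEC did. Spearman's rho between lists was 0.74 to 0.81 for E14.5 pairs and 0.54 to 0.60 for pairs with NEC, as a description over regions that share each list's depth. For H3K4me3 fold enrichment the highest rho was 0.76, between aRG-N and bRG, and the lowest 0.36, between NEC and N. Within a list, regions with higher H3K4me3 fold enrichment had less of their H3K4me3 length covered by H3K27me3, with rho from -0.39 for NEC to -0.29 for bRG.

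At the 6 regions with the strongest H3K4me3 in every list, ranked by the lowest of their 5 percentiles among all peaks of a list, H3K4me3 lay partly or wholly outside H3K27me3 in nearly every list. Their lowest percentiles ran from 86.4 to 66.8. In none was H3K4me3 enclosed by H3K27me3 in more than 1 list, and 4 of the 6 had no base under all 10 lists. Their H3K4me3 covered 1884 to 4104 bp for NEC, against a median of 1308 bp in the 719. The part of this length in the layout of the 6 regions was not tested. The first, on chromosome 18 (15220366 to 15223502), had fold enrichments of 13.7 for aRG-P, 19.3 for aRG-N, 14.4 for bRG and 11.6 for N, against 36.0 for NEC. In NEC its H3K4me3 peak overlapped an H3K27me3 peak at each end (15219122 to 15221364 and 15222658 to 15227650), and aRG-N and N also had an H3K27me3 peak on each side. A region on chromosome 7 (36369455 to 36372173) had H3K27me3 on the left only. The right end of that H3K27me3 was at 36370241 for aRG-P, 36370392 for aRG-N, 36370334 for bRG and 36370426 for N, against 36370618 for NEC. The border thus lay in the same part of the region in every list. On chromosome 17 (8993383 to 8996838) the E14.5 lists again had a common border, with H3K27me3 ending at 8993648 for aRG-P, 8993683 for aRG-N, 8993626 for bRG and 8993795 for N. In NEC it ran on to 8997239, across the whole H3K4me3 peak.

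Another strong region, on chromosome 7 (29952738 to 29956841), showed the marks apart in 4 lists. Its H3K4me3 covered 1408 bp for aRG-P, 1145 bp for aRG-N, 1302 bp for bRG and 1211 bp for N, against 4104 bp for NEC, where it reached into the H3K27me3 peak. The remaining 2 of the 6 lay on chromosome 19 (46835955 to 46837838), with a common stretch of 223 bp, and on chromosome 18 (75978829 to 75981070), with none.

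The 6 regions with the longest H3K27me3 in every list were of the other kind. In all 6, H3K4me3 was enclosed in all 5 lists, and each had a base under all 10 lists. Their H3K27me3 covered at least 23408 bp in every list, and the longest of the 6 regions had 2377 bp. The enclosure thus largely follows from how they were picked. On chromosome 6 an H3K4me3 region at 52108181 to 52108959 lay inside H3K27me3 peaks of 136 kb for aRG-P, 139 kb for aRG-N, 134 kb for bRG and 141 kb for N, against 131 kb for NEC. Its H3K4me3 was 313 bp for aRG-P, 551 bp for aRG-N, 319 bp for bRG and 310 bp for N, against 779 bp for NEC. H3K27me3 of 41.1 to 49.7 kb enclosed a region on chromosome 4 (88940102 to 88941532), H3K27me3 of 36.4 to 44.4 kb one on chromosome 6 (6829777 to 6832153), and H3K27me3 of 32.0 to 37.9 kb one on chromosome 1 (63319379 to 63320970). The other 2 were the pair of regions in the chromosome 2 domain of 32.2 kb described above. The E14.5 to NEC ratio of H3K27me3 length was 0.973 to 1.09 in the 4 single regions and 0.799 in the pair. The ratio of H3K4me3 length was 0.307 to 0.618 in the 4 single regions and 0.501 and 0.794 in the pair.

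**Figure D5:**
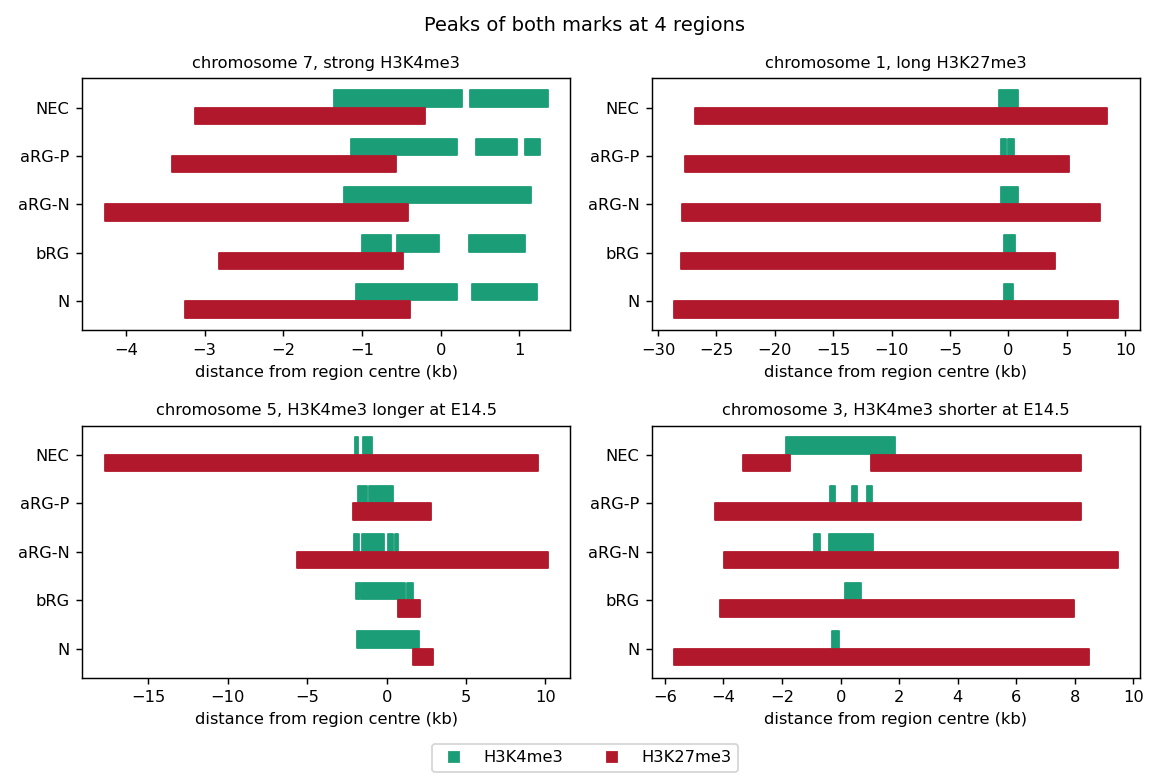
Peaks of H3K4me3 (upper bar) and H3K27me3 (lower bar) in each cell type at 4 regions, by distance from the region's centre in kb. On chromosome 7 H3K27me3 ends within the H3K4me3 region in every list, on chromosome 1 it encloses it, on chromosome 5 it is 1.27 kb long in N, against 27.3 kb for NEC, and on chromosome 3 the H3K4me3 peak is 0.242 kb long in N, against 3.72 kb for NEC.

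At the extremes of the length ratios the extent of a mark differed several times between lists while both marks stayed called. The lowest H3K4me3 ratios were on chromosome 2 (164681852 to 164683727, ratio 0.143), chromosome 3 (30405777 to 30409493, 0.146) and chromosome 8 (121970520 to 121972370, 0.151). On chromosome 3 H3K4me3 covered 561 bp for aRG-P, 1719 bp for aRG-N, 523 bp for bRG and 242 bp for N, against 3717 bp for NEC. H3K27me3 there was 1 unbroken peak of 12.5 kb for aRG-P, 13.4 kb for aRG-N, 12.1 kb for bRG and 14.2 kb for N, against 2 peaks of 1.61 and 7.15 kb for NEC that left the middle of the region free. On chromosome 2 the E14.5 H3K4me3 peaks stayed inside H3K27me3 in every list, but the bRG peak did not meet those of aRG-P and N, and no base was common to all 5.

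The highest H3K4me3 ratios were on chromosome 5 (98609379 to 98613504, 3.83), chromosome 2 (21288843 to 21289741, 2.23) and chromosome 15 (76349395 to 76355062, 1.73). On chromosome 5 H3K4me3 covered 2096 bp for aRG-P, 2219 bp for aRG-N, 3447 bp for bRG and 3939 bp for N, against 740 bp for NEC. Its H3K27me3 was 4914 bp for aRG-P, 15812 bp for aRG-N, 1356 bp for bRG and 1265 bp for N, against 27274 bp for NEC. This region also had 1 of the 3 lowest H3K27me3 ratios, 0.115, beside regions on chromosome 8 (96702747 to 96704160, 0.107) and chromosome 16 (88289383 to 88291040, 0.170). On chromosome 15 the mark reached further left at E14.5, the leftmost H3K4me3 base being 76349930 for aRG-P, 76349921 for aRG-N, 76349726 for bRG and 76349395 for N, against 76352686 for NEC.

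The highest H3K27me3 ratio, 140, came from chromosome 7 (77499192 to 77507823), the longest region of the set. H3K27me3 covered 55807 bp for aRG-P, 61271 bp for aRG-N, 53132 bp for bRG and 64268 bp for N, against a single peak of 417 bp for NEC. H3K4me3 there covered 1809 bp for aRG-P, 2125 bp for aRG-N, 1315 bp for bRG and 1527 bp for N, against 8632 bp for NEC. The next 2 ratios were 27.2 on chromosome 3 (102007370 to 102008720) and 16.8 at the chromosome 2 region that NEC H3K27me3 met over 3 bp. Membership of such regions in the set rests on a short NEC peak.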

How the data were processed

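The data were 10 deposited peak lists, 1 per cell type and mark, grouped by the sample titles, and Input samples were left out. Tools named in the submitters' processing notes are MACS2, bedtools and Bowtie 1.0.0, with build mm9. Per the file headers the lists refer to transcripts, and per the peak names each was called on combined samples. The deposited H3K4me3 values used were the authors' ratio to background (fold enrichment) and −log10 p and q, the last pair only in alternatives. The deposited H3K27me3 columns are treated as a score, since the third exceeded the second in every peak.

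Scripts in Python 3.11.15 used pandas 2.3.3 and numpy 2.4.6 to join and compare peaks, scipy 1.17.1 for intervals and matplotlib 3.10.9 for figures. H3K4me3 length is the covered length of a list's peaks in a region, and H3K27me3 length that of its whole overlapping peaks. Shares have exact Clopper-Pearson 95% intervals and medians order-statistic intervals. Calls were checked on the deposited lists with peaks added or removed at known regions, and by an all-pairs search on a single chromosome. Lengths were checked on a constructed region. Named regions are the 6 with the highest lowest H3K4me3 percentile, the 6 with the longest shortest H3K27me3, the 5 joined domains with most regions (ties by length), the 3 highest and 3 lowest length ratios per mark, and the 3 just inside and outside the rule. The regions, this rule and the settings were chosen with earlier results of these data known. The ranking over constant regions and the 5 groups of NEC enrichment were chosen after seeing values. The reference tables were of GRCm38.p6, so no gene name or sequence is given.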

Additional observations from a re-analysis of the deposited data

How the results depend on the processing

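The set held 565 to 900 regions under the 12 alternatives fixed at the start (719 as reported), and 453 when a base under all 10 lists was required, an alternative chosen after seeing the data. As a share of autosomal H3K4me3 regions it was 3.42% with H3K27me3 lists of equal length, 3.80% with an H3K27me3 overlap of at least 200 bp, 3.76% with an H3K4me3 −log10 q of at least 5, 5.61% with H3K4me3 peaks joined across 1000 bp and 3.41% where the marks had to touch in each cell type (4.34% as reported). Without the lists of 1 cell type it was 4.80% (NEC), 5.01% (aRG-P), 5.42% (bRG) and 4.83% (N). The share of regions with a base under all lists used was 69.3% with H3K27me3 lists of equal length, 71.9% with 200 bp of overlap and 80.2% with touching marks. It was 73.3%, 72.2%, 69.1% and 67.5% without the NEC, aRG-P, bRG and N lists. The share sharing a joined domain was 1.33% with peaks joined across 1000 bp. H3K27me3 lists of equal length gave median H3K27me3 lengths of 4472 bp in NEC, 3522 bp in aRG-P, 4941 bp in aRG-N, 2865 bp in bRG and 4391 bp in N. With 200 bp of overlap they were 3363 bp in aRG-P and 2710 bp in bRG, and with touching marks 3525 bp in aRG-P, 4869 bp in aRG-N, 2860 bp in bRG and 4297 bp in N. Without the bRG lists they were 2873 bp in aRG-P, 4229 bp in aRG-N and 3800 bp in N, and without aRG-P 2354 bp in bRG. Median H3K4me3 length with a −log10 q of at least 5 was 1381 bp in NEC, 745 bp in aRG-P, 945 bp in aRG-N, 808 bp in bRG and 864 bp in N. It was 786 bp in bRG with H3K4me3 lists of equal length, and in NEC 1412 bp with peaks joined across 1000 bp and 1250 bp without bRG. The median percentile among all peaks of a list, 44.9 in NEC as reported, was 33.5 in NEC, 29.1 in aRG-P and 33.4 in N with H3K4me3 lists of equal length, and 42.2 in NEC, 31.7 in aRG-P and 26.1 in bRG with a −log10 q of at least 5. The median log2 ratio of E14.5 to NEC H3K4me3 length, -0.70, was -0.66 with that q. The cause of these moves was not tested, beyond the construction of the alternatives, which drop or add peaks and regions. The median share of H3K4me3 length covered by H3K27me3 was at its ceiling of 100% throughout and says nothing on stability. The percentiles over the 11345 constant regions and the shares enclosed or not touching were not recomputed under the alternatives. No paired analysis was possible because each list was called on combined samples, and for the same reason no replicate could be left out. Unknown read depth limits any statement on regions where a list has no peak.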

Other observations

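Chromosome 18 had the highest share of its constant H3K4me3 regions in the set, 29 of 312 (9.29%, exact 95% interval 6.31 to 13.1%). That interval holds the share over all autosomes, 6.34%, though its lower limit is close to it. It covers counting error only, for the highest of 19 chromosomes, so the order of chromosomes is not read further. The next shares were those of chromosome 14 (8.40%) and chromosome 13 (8.37%). The lowest shares were on chromosome 16 (4.83%) and chromosome 9 (4.96%), and all intervals overlapped that of chromosome 18. Chromosome 2 held most regions, 72 of 944. With the sex chromosomes included the set grew to 723.

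The next H3K4me3 region along the chromosome was a region with constant H3K27me3 and H3K4me3 in some lists in 15.2% of the 1438 neighbours of the 719, against 5.74% of the 17239 neighbours of regions without H3K27me3. Another region of the set was the neighbour in 4.45% of cases, against 4.04%. Regions with constant H3K27me3 and H3K4me3 in some lists had a neighbour of their own kind in 31.1% of 2666 cases. These shares describe order along the chromosome only, and no test was made.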
